A study of Mus musculus with 17 samples.

Results

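Interferon-stimulated genes (ISGs) were followed across the RNA-seq libraries as a set of 40 named genes, chosen by symbol as known interferon targets, out of 41388 gene IDs in the count tables. All 40 symbols matched 1 gene ID each, and all 40 passed the filter on low counts in every comparison. The libraries came from bone marrow macrophages (BMMs), grown from mouse marrow with M-CSF, and from osteoclast precursors (preOCs), which are BMMs given M-CSF and RANKL at 100 ng/ml for 24 h. All mice carried loxP-flanked Bap1 alleles, and Bap1flox controls had no Cre. Bap1LysM mice also carried 1 copy of Cre (stated as LysMCre+/-) in Lyz2, the lysozyme gene of myeloid cells. Any cell that does not express Lyz2 therefore keeps Bap1. There were 3 Bap1flox BMM, 3 Bap1LysM BMM, 6 Bap1flox preOC and 5 Bap1LysM preOC libraries. The preOC libraries were from 20-week-old male mice, and the age and sex of the BMM donors and the strain are not given in the sources used here. The study describes its 20-week preOC samples as biologically independent. For the BMM libraries nothing in these sources says so, and p-values that use them measure only the spread between these libraries.

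Type I interferons bind a receptor made of IFNAR1 and IFNAR2, whose kinases phosphorylate STAT2. With IRF9 this enters the ISGF3 complex, which binds the interferon-stimulated response element (ISRE) in front of its target genes, while interferon-gamma acts through the GAS element. The induced proteins sense foreign nucleic acid, block viral replication and feed back on the pathway, and in macrophages RANKL itself is known to induce a low level of interferon-beta that restrains osteoclast formation.

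Total counts were 37967542 to 61369441 per library. Mitochondrial reads made up 0.481% to 1.074% of counts in the 11 libraries of replicates 1 to 3 and 2.364% to 5.264% in the 6 preOC libraries of replicates 4 to 6, a set with no BMM library. Bap1 stood at 82.1 to 84.4 CPM (the deposited count scaled to library size) in Bap1flox BMMs and 74.8 to 77.1 CPM in Bap1LysM BMMs, and at 70.3 to 97.1 and 55.9 to 87.7 CPM in the preOCs. Counts are per gene, so reads of deleted exons are not told apart. Lyz2, which the Cre insertion disrupts, separated the Bap1LysM libraries. It was at 0.146% to 0.436% of the Bap1flox mean in 6 of them, but at 42.8% in the library labelled Bap1LysM BMM replicate 1 and 75.1% in the library labelled Bap1LysM preOC replicate 1. The study states 1 Cre copy per Bap1LysM mouse, which leaves 1 Lyz2 allele intact. Lyz2 thus does not say which of the Bap1LysM libraries have the stated genotype, and this was not tested. Because these 2 libraries differ from the other 6, results that rest on them are given with and without them. Osteoclast markers summed to 231 to 352 CPM in BMMs and 5917 to 17563 CPM in preOCs, with the lowest preOC value in the library labelled Bap1LysM preOC replicate 1. The 10 T and NK cell markers summed to at most 4.25 CPM and the 8 erythroid markers to at most 0.795 CPM in any library.

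The ISRE was found in most of the member promoters that could be searched. RefSeq windows (GRCm38.p6) of 250 bases before to 50 bases after a transcription start were found for 30 of the 40 members, in 34 windows. Dhx58, Zbp1, Oas2, Usp18, Mx1, Mx2, Rtp4, Ifi27l2a, Parp9 and Parp14 had none. The ISRE was searched as TTTCNNTTTC on both strands (GAAANNGAAA on the other), overlapping matches included. It was present in 18 of the 30 members (60.0%), against 3.99% of 27025 genes and 3.44% of 32851 windows of the same length. The GAS element, searched as TTCNNNGAA, which reads the same on both strands, was present in 7 of the 30 (23.3%), against 9.55% of genes. In 5 of these 7 (Gbp7, Oas1a, Bst2, Igtp and Eif2ak2) both elements lay in the same window, and in Bst2 they overlap. A match is a run of letters and not a measured binding site. The windows of members shown with their role below are printed in the direction of transcription with 15 flanking bases, and capitals mark the ISRE matches.

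**Figure D1:**
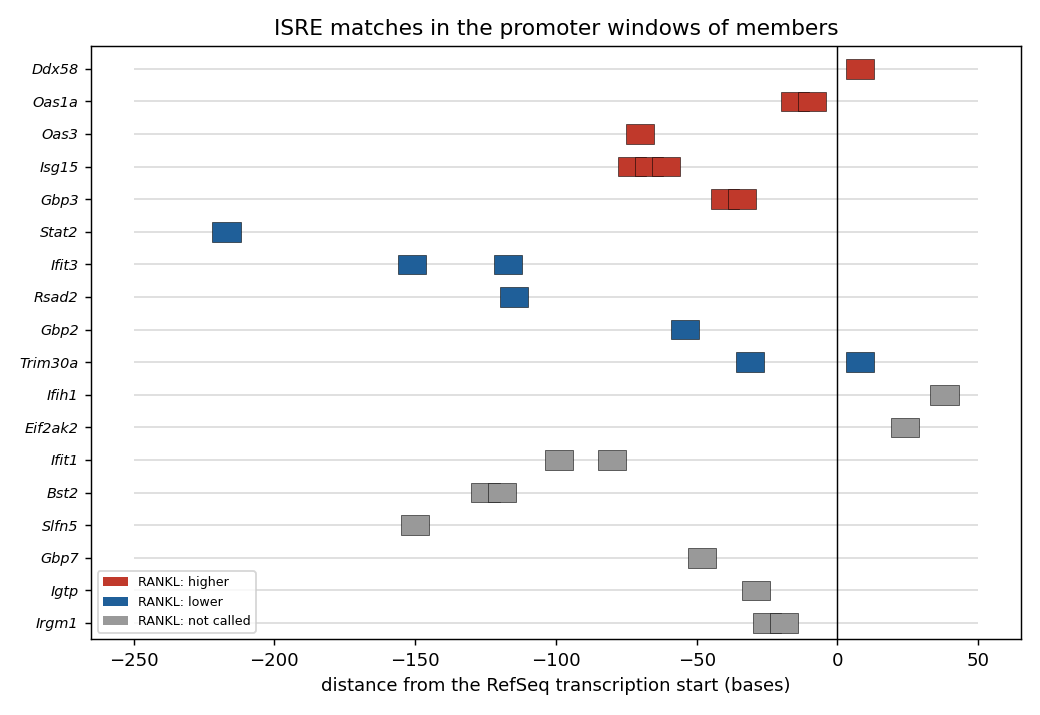
Positions of the ISRE matches in the 18 members that hold one, as distance in bases from the RefSeq transcription start, with overlapping matches drawn over each other. Colours give the RANKL call of each member in Bap1flox; matches occur in members that were higher (5 of 10 with a window), lower (5 of 7) and not called (8 of 13).

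In Bap1flox BMMs, before RANKL, the members were all expressed but over a wide range. Levels of different genes are compared here as RPKM, which divides by gene length. Ifi27l2a, which encodes a small hydrophobic protein, was highest at 387 ± 48.1 RPKM (SD, n = 3), followed by Bst2, which encodes the virion-retaining protein tetherin, at 314 ± 55.3 RPKM. These 2 differed by less than the sum of their SDs. Irf7, Oasl2, Rtp4 and Oas1a followed at 94.7 ± 12.2, 69.1 ± 6.28, 54.9 ± 3.62 and 50.9 ± 3.75 RPKM, where Rtp4 and Oas1a lay within their spread of each other. Mx2 and Ifi44 were lowest at 2.36 ± 0.238 and 1.69 ± 0.448 RPKM. Summed over the 40 members, the level was 3436 to 3709 CPM in Bap1flox BMMs and 3650.3 to 4195 CPM in Bap1flox preOCs of the same replicates.

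RANKL split the members rather than moving them together. In Bap1flox replicates 1 to 3, 12 of 40 members were higher and 13 lower in preOCs than in BMMs at an adjusted p under 0.05 (edgeR quasi-likelihood test over 13415 genes, Benjamini-Hochberg). Over all genes tested, 31.7% were higher and 32.9% lower, so the members' shares are near the background. Their median log2 fold change was 0.06, beside -0.05 for all genes. The largest increases were of Isg15 and Oasl1 and the largest decreases of Ifi27l2a, Ifit2 and Mx1. Nothing in the labels says whether libraries with the same number come from 1 mouse, but same-numbered libraries deviated together, and with the replicate number as a block 10 members were higher and 12 lower. Irf7, Rtp4 and Oas2 then missed the threshold (adjusted p = 0.076, 0.069 and 0.10 from edgeR). Bulk RNA cannot tell fewer cells of a type from less RNA per cell.

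**Figure D2:**
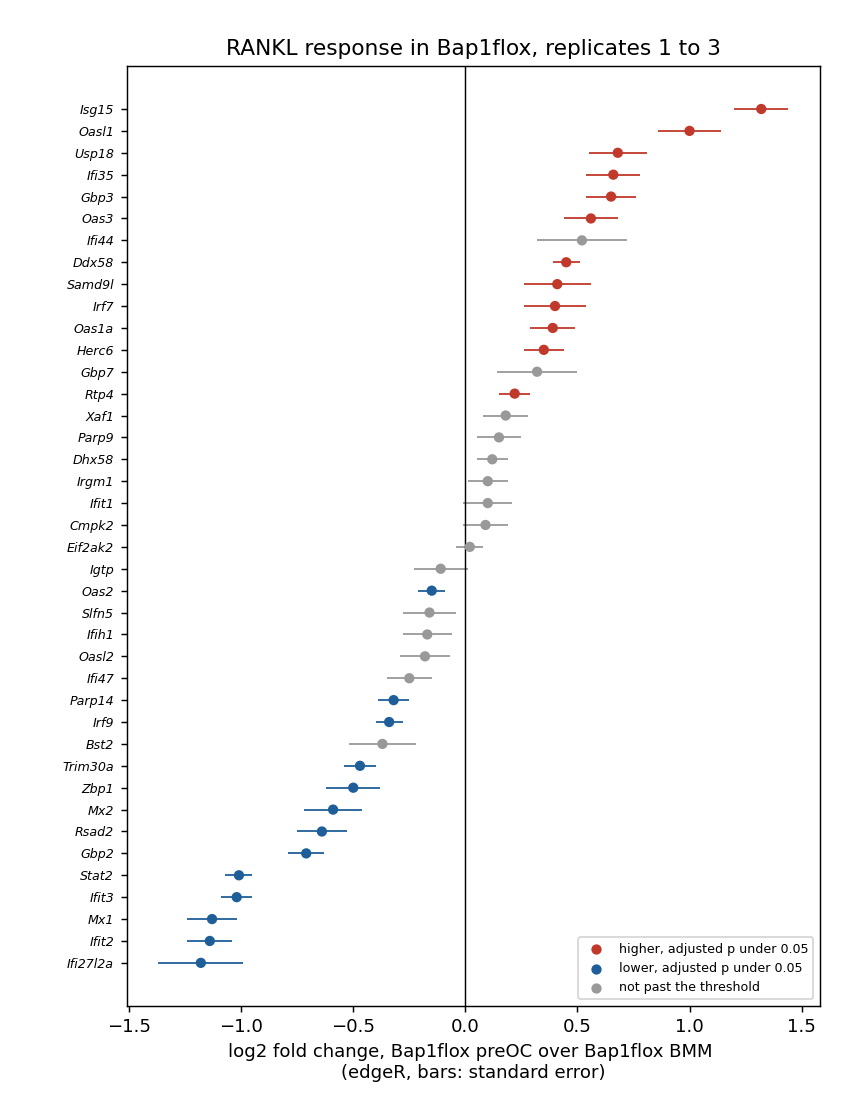
Log2 fold change of each of the 40 members between Bap1flox preOCs and Bap1flox BMMs, replicates 1 to 3, from edgeR, with bars of 1 standard error. Isg15 (1.32) and Ifi27l2a (-1.18) form the ends, and 15 members in grey did not pass the adjusted p of 0.05.

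Of the ISGF3 and IRF factors among the members, Stat2 and Irf9 fell and Irf7 rose. Stat2 (ENSMUSG00000040033, plus strand, chr10:128270576-128292849 of GRCm38) encodes a subunit of ISGF3. It was at 205, 209 and 198 CPM in Bap1flox BMMs and at 119, 115 and 112 CPM in the preOCs of replicates 1 to 3. The groups were far apart, and the log2 fold change was -1.01 ± 0.06 (SE; adjusted p = 1.6e-05, edgeR). Its promoter holds 1 ISRE match, shown because Stat2 had the largest change of the 3 factors:
Stat2 (chr10:128270261-128270300, plus strand): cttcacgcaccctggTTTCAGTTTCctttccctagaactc

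Irf9 (ENSMUSG00000002325, plus strand, chr14:55603571-55610030), the DNA-binding subunit of ISGF3, was at 97.4, 97.6 and 94.2 CPM in BMMs and at 90.6, 85.6 and 84.0 CPM in preOCs. All 3 preOC values lay below the BMM values, and after scaling of the libraries the log2 fold change was -0.34 ± 0.06 (SE; adjusted p = 0.0022, edgeR). Irf7 (ENSMUSG00000025498, minus strand, chr7:141262706-141266481), the factor that amplifies interferon-alpha transcription, moved the other way, from 245, 317 and 297 CPM to 493, 371 and 427 CPM. The groups did not overlap, and the log2 fold change was 0.40 ± 0.14 (SE; adjusted p = 0.037, edgeR). This call was lost without Bap1flox BMM replicate 3, preOC replicate 1 or preOC replicate 3. Neither the Irf7 nor the Irf9 windows held a match to either motif.

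Among the 10 RNA and DNA sensors, 4 rose (Oasl1, Oas3, Ddx58 and Oas1a), Zbp1 fell, 4 did not pass the test (Ifih1, Dhx58, Eif2ak2 and Oasl2) and Oas2 was called lower in a minority of the fits. The Oas genes encode synthetases that make 2'-5' oligoadenylate on double-stranded RNA, and Oasl1 a related protein without that activity that holds back Irf7 translation. Oasl1 (ENSMUSG00000041827, plus strand, chr5:114923240-114937915) went from 17.3, 23.5 and 21.6 CPM in BMMs to 51.0, 40.4 and 50.6 CPM in preOCs. Every preOC library of these replicates lay above every BMM library, at a log2 fold change of 1.00 ± 0.14 (SE; adjusted p = 0.00082, edgeR). The other log2 fold changes that passed were 0.56 for Oas3, 0.45 for Ddx58 (the RNA helicase RIG-I), 0.39 for Oas1a and -0.50 for the Z-DNA sensor Zbp1. Oas2 was at 149.9, 158 and 149 CPM in BMMs and 153, 152 and 164 CPM in preOCs, so the groups overlapped, and its log2 fold change of -0.15 comes from fitted values after scaling of the libraries (-0.13 with DESeq2). It is counted among the 13 lower members, but it missed the threshold with DESeq2, other scaling factors, no filter and the replicate block, and whichever of the 6 libraries was dropped. Oas3, the member with the largest genotype difference in replicates 4 to 6, holds 1 ISRE match on the strand opposite to the gene:
Oas3 (chr5:120777710-120777749, minus strand): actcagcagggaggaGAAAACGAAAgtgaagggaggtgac

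All 3 members of the ISG15 pathway rose. Isg15 encodes a ubiquitin-like modifier, Usp18 the protease that removes it and that also blocks signalling at IFNAR2, and Herc6 the mouse ligase for ISG15. Isg15 (ENSMUSG00000035692, minus strand, chr4:156199424-156200818) stood at 22, 27.8 and 24.6 CPM in BMMs and at 78.2, 64.2 and 69.6 CPM in preOCs. No other member rose as much, with a log2 fold change of 1.32 ± 0.12 (SE; adjusted p = 8.8e-05, edgeR). Usp18 (ENSMUSG00000030107, plus strand, chr6:121245906-121270916) was at 25.1, 26.3 and 26.6 CPM before RANKL and at 56.2, 42.2 and 43.8 CPM after it. Its groups did not overlap, and the log2 fold change was 0.68 ± 0.13 (SE; adjusted p = 0.0027, edgeR), while that of Herc6 was 0.35 (adjusted p = 0.0093 from edgeR). The Isg15 promoter is shown because it carries 3 overlapping ISRE matches in a row, more than any other member's window:
Isg15 (chr4:156200860-156200911, minus strand): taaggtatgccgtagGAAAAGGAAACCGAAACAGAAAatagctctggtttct

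Of the 11 antiviral effectors, 5 fell (Ifit2, Mx1, Ifit3, Rsad2 and Mx2), 2 rose by less (Samd9l and Rtp4, at 0.41 and 0.22) and Ifit1, Cmpk2, Bst2 and Slfn5 did not pass. The Samd9l call was lost in 5 and the Rtp4 call in 3 of the 6 fits that left out 1 library. The Ifit genes encode proteins that bind viral RNA and block its translation, Mx1 and Mx2 dynamin-like GTPases, and Rsad2 the enzyme viperin. Ifit2 (ENSMUSG00000045932, plus strand, chr19:34550694-34576419) was at 48.7, 56.8 and 56.7 CPM in BMMs and at 27.0, 25.9 and 31.2 CPM in preOCs. It fell in all 3 replicates, at a log2 fold change of -1.14 ± 0.10 (SE; adjusted p = 8.9e-05, edgeR). The log2 fold changes of Mx1, Ifit3, Rsad2 and Mx2 were -1.13, -1.02, -0.64 and -0.59. Ifit1, in the same gene cluster as Ifit3, was at 40.4, 38.2 and 36.8 CPM in BMMs and 53.3, 41.5 and 46.3 CPM in preOCs, with a log2 fold change of 0.10 (adjusted p = 0.45 from edgeR). Their sequences are shown together because both promoters hold 2 ISRE matches with the same letters while their RANKL responses differed in size, a difference that was not tested:
Ifit3 (chr19:34583358-34583431, plus strand): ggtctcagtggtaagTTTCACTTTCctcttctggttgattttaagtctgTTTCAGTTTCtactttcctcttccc
Ifit1 (chr19:34640770-34640828, plus strand): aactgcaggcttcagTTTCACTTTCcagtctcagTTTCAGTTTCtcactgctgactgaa

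Of the 6 interferon-inducible GTPases, which act on the membranes around intracellular microbes, Gbp2 fell, Gbp3 rose (log2 fold change 0.65, adjusted p = 0.0021 from edgeR) and Gbp7, Igtp, Irgm1 and Ifi47 did not pass. Gbp2 (ENSMUSG00000028270, plus strand, chr3:142620602-142638008) was at 23.5, 24.6 and 22.4 CPM in BMMs and at 17.1, 15.5 and 16.3 CPM in preOCs. The groups were separate, with a log2 fold change of -0.71 ± 0.08 (SE; adjusted p = 0.00031, edgeR). Its window is shown because Gbp2 also departs from the other members in the genotype comparisons:
Gbp2 (chr3:142620589-142620628, plus strand): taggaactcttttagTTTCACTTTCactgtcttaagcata

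Of the other 7 members, Ifi35 rose, Ifi27l2a, Trim30a and Parp14 fell, and Ifi44, Xaf1 and Parp9 did not pass. Ifi27l2a (ENSMUSG00000079017, minus strand, chr12:103442167-103443680) went from 159.9, 204 and 174 CPM in BMMs to 117, 74.4 and 79.4 CPM in preOCs. This was the largest decrease among the members, at a log2 fold change of -1.18 ± 0.19 (SE; adjusted p = 0.0015, edgeR). Ifi35, whose product binds the protein NMI, had a log2 fold change of 0.66, the ADP-ribosyltransferase gene Parp14 one of -0.32, and Trim30a, a TRIM-family gene, one of -0.47. Several members have close copies in the genome (Ifit3 and Ifit3b, Oas1a and Oas1g, the Gbp cluster), and since only uniquely aligned reads were counted, reads shared by copies are missing from these values.

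The increases rested on the preOC libraries of replicates 1 to 3. When all 6 Bap1flox preOC libraries were set against the 3 BMM libraries, 11 members passed, all among the 25 above. Of the 40, 10 were lower and 1 higher, against 28.3% and 31.7% of 13515 genes. Samd9l alone was higher (log2 fold change 0.53, adjusted p = 0.027 from edgeR), and the median of the members was -0.32. Isg15 was then at 0.61 (adjusted p = 0.46), Oasl1 at 0.33 (adjusted p = 0.65) and Irf7 at -0.31 (adjusted p = 0.71, all from edgeR). Stat2, Ifit2, Ifit3, Mx1, Mx2, Rsad2, Gbp2, Irf9, Ifi27l2a and Trim30a were lower in both fits.

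Replicates 4 to 6 of the Bap1flox preOCs stood below replicates 1 to 3 for most members, within 1 genotype and treatment. In 33 of 40 members all 3 libraries of replicates 1 to 3 were above all 3 of replicates 4 to 6, against 35.1% of 12929 genes, and in no member was the order the reverse. The median ratio of replicates 4 to 6 over replicates 1 to 3 was 0.47, from 0.17 for Isg15 to 1.02 for Samd9l. Isg15 stood at 78.2, 64.2 and 69.6 CPM in replicates 1 to 3 and at 9.17, 10.4 and 16.5 CPM in replicates 4 to 6. Irf7 showed the same gap, with 493, 371 and 427 CPM against 42.9, 62.5 and 115 CPM, whereas Samd9l was at 99.3, 100.2 and 104 CPM against 87.8, 87.9 and 136 CPM. With no BMM library of replicates 4 to 6 among those used here, a lower starting level and a different response to RANKL cannot be told apart. The mitochondrial share was higher and stromal markers, at 243 to 429.7 CPM against 1503 to 2532 CPM, were lower in sum in these 3 libraries. Dcn of the stromal list went the other way, at 4.43 to 7.34 CPM against 1.02 to 2.18 CPM. Conventional dendritic cell markers were higher, at 86.8 to 179 CPM against 45.7 to 75.5 CPM, nearly all of it Itgax. Macrophage markers were higher in sum too, at 4367 to 5097 CPM against 4202 to 4304 CPM. Cd14 of the macrophage list was lower, at 47.6 to 60.0 CPM against 73.4 to 120.5 CPM. The part of these in the difference was not tested.

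**Figure D3:**
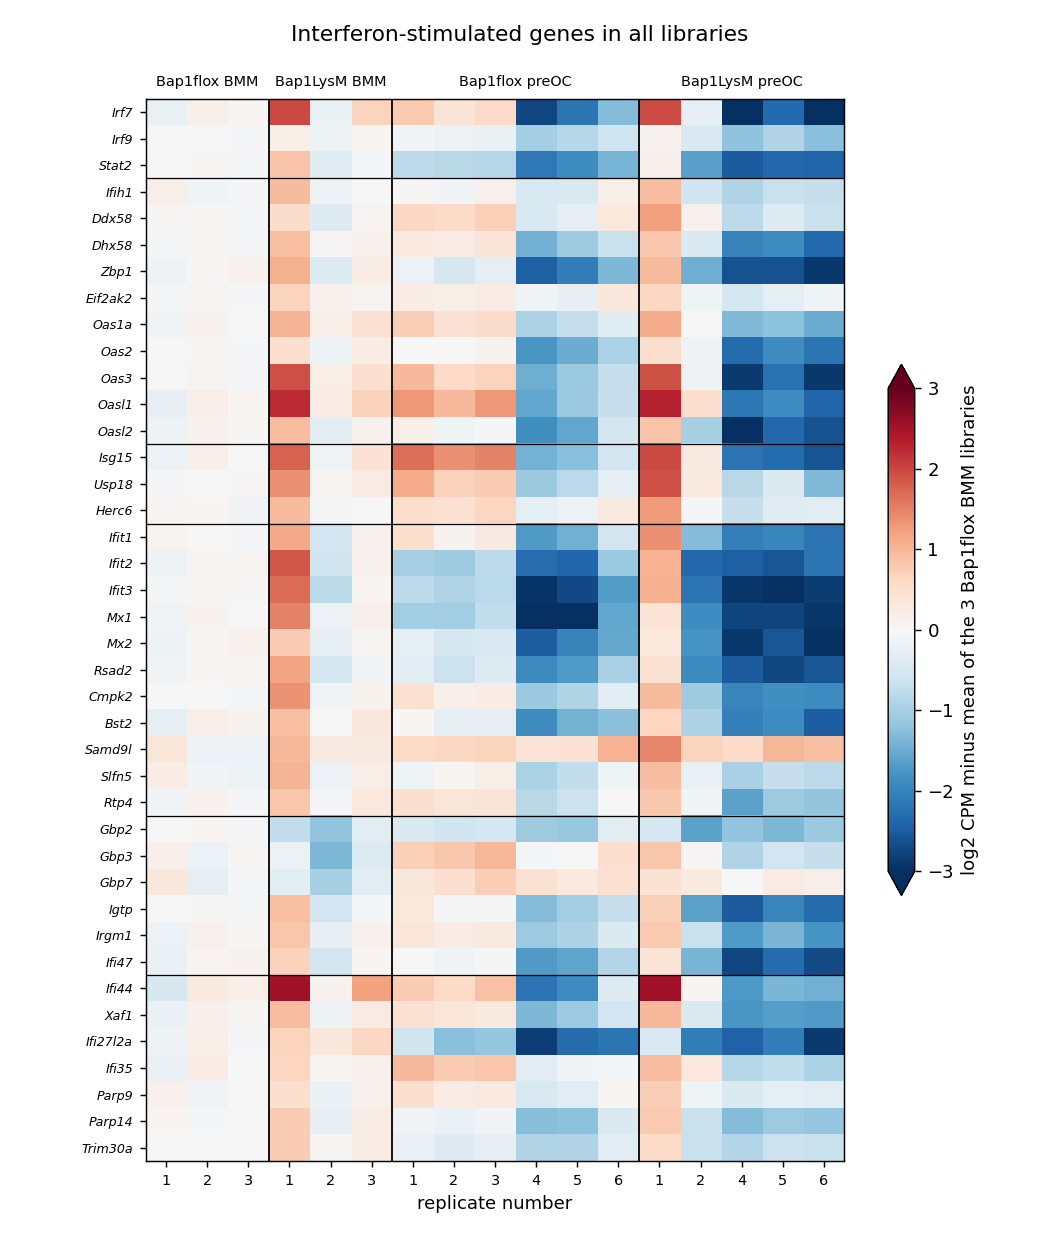
Heat map of the 40 members (rows, grouped by role) in the 17 libraries (columns, by group and replicate number), as log2 CPM minus the mean of the 3 Bap1flox BMM libraries, with colours capped at 3 in either direction. The replicate 1 columns of Bap1LysM are the reddest in BMMs and in preOCs, and preOC replicates 4 to 6 of both genotypes are blue for most members. Bap1LysM preOC replicate 2 is also blue for most members, and bluer than Bap1flox preOC replicate 6 for Ifit2 and Gbp2.

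In BMMs the genotypes differed in no member at the adjusted threshold, while 1 library stood apart. With edgeR 0 of 40 members passed, against 5.32% of 13028 genes, and 6 members had an unadjusted p under 0.05. DESeq2 called 3 (Ifi27l2a and Oas1a higher, Gbp2 lower) and voomWithQualityWeights, the limma method the study used, called 2 (Ifi27l2a higher, Gbp2 lower), where they called 15.9% and 13.6% of all genes. With the replicate number as a block, edgeR called 2, Samd9l higher (log2 fold change 0.52, adjusted p = 0.018) and Gbp7 lower (-0.54, adjusted p = 0.029), and 16.2% of all genes. The median log2 fold change of the members was 0.43, beside -0.01 for all genes, and -0.01 without the library labelled Bap1LysM BMM replicate 1.

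The library labelled Bap1LysM BMM replicate 1 was above the other 5 BMM libraries in 37 of 40 members, where 12.2% of all genes showed this. Its summed member level was 7556 CPM, against 3228 and 4251 CPM in Bap1LysM BMM replicates 2 and 3 and 3436 to 3709 CPM in Bap1flox. The median ratio to the Bap1flox BMM mean was 1.89. Ifi44 was highest at 5.62, with Oasl1 at 4.70, Irf7 at 3.95, Oas3 at 3.80, Ifit2 at 3.60 and Isg15 at 3.37. The 3 exceptions were all guanylate-binding proteins: Gbp2, Gbp3 and Gbp7 had ratios of 0.596, 0.881 and 0.773.

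The same library also differed from the other BMM libraries in markers of other cell types. Plasmacytoid dendritic cell markers, from the cell type known for its interferon output, summed to 167 CPM there and 173 to 250.5 CPM in the other BMM libraries. Nearly all of that sum was Tcf4, at 165.65 CPM in this library, while Siglech was at 0.112 CPM and Klk1 at 0. B and plasma cell markers summed to 59.7 CPM (96.7 to 125 CPM in the others), of which Ighm gave 28.4 CPM against 81.6 to 109.5 CPM. Igkc went the other way, at 23.5 CPM against 1.22 to 5.81 CPM in Bap1flox, but was at 23.6 and 14.6 CPM in Bap1LysM replicates 2 and 3. Stromal markers summed to 437 CPM (606 to 3131 CPM in the others). Conventional dendritic cell markers were higher, at 60.2 CPM against 12.8 to 30.9 CPM. Of this Itgax, which macrophages also express, gave 56.6 CPM, while Zbtb46 was at 0.806 CPM, within the 0.738 to 1.624 CPM of the others. Flt3, at 1.029 CPM against 0.459 to 0.841 CPM, and Ccr7, at 0.739 CPM against 0.156 to 0.464 CPM, were also highest in this library. The part of these values in the result was not tested.

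Bap1LysM BMM replicates 2 and 3 alone lay around the Bap1flox level, with a median ratio of 1.0. Both were above all 3 Bap1flox BMM libraries in 6 members (Oas1a, Oas3, Oasl1, Usp18, Ifi27l2a and Trim30a), where 21.4% of all genes did so, and both were below in 4 (Stat2, Gbp2, Gbp3 and Gbp7), where 22.5% did. Ifi27l2a was at 227 and 275 CPM in them and at 159.9 to 204 CPM in Bap1flox, and at 284 CPM in the library labelled replicate 1. With that library included it had a log2 fold change of 0.57 (adjusted p = 0.064 from edgeR). Gbp2 was at 10.4 and 18.5 CPM in Bap1LysM replicates 2 and 3, below the 22.4 to 24.6 CPM of Bap1flox, and at 14 CPM in the library labelled replicate 1 (log2 fold change with all 3 -0.69, adjusted p = 0.10 from edgeR).

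In preOCs the count of members called depended on the fit and on 1 library. With all 6 Bap1flox and 5 Bap1LysM libraries, edgeR called 0 of 40 members, against 15.8% of 12929 genes. At an unadjusted p under 0.05 there was 1 member (Samd9l), DESeq2 called 0, and the median log2 fold change was -0.08, beside -0.01 for all genes. Member values ran from -0.57 for Gbp3 to 0.71 for Ifi44. With voomWithQualityWeights, which gives deviating libraries less weight, 26 members passed, all lower in Bap1LysM, against 28.1% of all genes lower in that fit, with a median of -1.01. Without the library labelled Bap1LysM preOC replicate 1, edgeR called 14 members, all lower, against 13.3% of all genes lower, with a median of -0.94.

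That library was above the other 4 preOC libraries of replicates 1 to 3 in 36 of 40 members, where 18.7% of genes showed this. The exceptions were again Gbp2, Gbp3 and Gbp7, with Ifi35. Its summed member level was 7112 CPM, against 3650.3 to 4195 CPM in the Bap1flox preOCs of these replicates, and its median ratio to them was 1.65. Ifit2 had the highest ratio, 3.94, at 110.5 CPM where Bap1flox replicates 1 to 3 were at 27.0, 25.9 and 31.2 CPM. Ifit3 and Ifi44 had ratios of 3.73 and 3.43, and Stat2 was at 225 CPM, above the 198 to 209 CPM of Bap1flox BMMs. Osteoclast markers summed to 5917 CPM in this library and to 7177 to 17563 CPM in the other 4, and macrophage markers to 5467 CPM against 4101 to 4304 CPM. Conventional dendritic cell markers were at 137 CPM against 45.7 to 109 CPM, of which Itgax gave 130.7 CPM while Zbtb46, at 1.505 CPM, lay below the 1.543 to 3.582 CPM of the others. Stromal markers were at 474 CPM against 1503 to 2532 CPM. The part of these values in the result was not tested. Plasmacytoid dendritic cell markers, at 56.2 CPM, lay within the 29.9 to 76.3 CPM of the others.

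Bap1LysM preOC replicate 2, the other Bap1LysM preOC of that set, lay on the opposite side. It was below all 3 Bap1flox preOC libraries of replicates 1 to 3 in 39 of 40 members, where 38.5% of genes were, with Samd9l as the exception. The median ratio was 0.58, from 0.312 for Igtp to 1.03 for Samd9l. Isg15 was at 29.9 CPM in it, Ifit2 at 10.6 CPM, Stat2 at 65.7 CPM and Irf7 at 239 CPM. Osteoclast markers summed to 17563 CPM in this library (7177 to 13388 CPM in those controls) and conventional dendritic cell markers to 109 CPM (45.7 to 75.5 CPM), mostly Itgax. B and plasma cell markers summed to 62.7 CPM (10.2 to 24.0 CPM), mostly Igkc, and plasmacytoid dendritic cell markers to 29.9 CPM (71.6 to 76.3 CPM), mostly Tcf4. The part of these in the result was not tested. The 2 libraries labelled Bap1LysM in replicates 1 to 3, with Lyz2 at 75.1% and 0.152% of the Bap1flox mean, thus lay on either side of the controls for most members. Within this set edgeR called 0 members (median 0.30, and 0 at an unadjusted p under 0.05), as it called 0.0% of 13611 genes.

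In replicates 4 to 6, Lyz2 was at 0.341% to 0.436% of the Bap1flox mean in all 3 Bap1LysM libraries. There 20 of 40 members were lower in Bap1LysM preOCs at the adjusted threshold and 0 higher, against 18.0% of 12728 genes lower (edgeR). The median log2 fold change was -0.61, beside 0.00 for all genes. The list holds 7 of the 10 sensors (Oas3, Oasl2, Oasl1, Dhx58, Zbp1, Oas2 and Oas1a), 5 of the 11 effectors (Cmpk2, Rsad2, Ifit1, Rtp4 and Bst2), 4 of the 6 GTPases (Igtp, Ifi47, Gbp3 and Irgm1), Isg15, Stat2, Xaf1 and Ifi35. In 24 of 40 members the 3 Bap1LysM libraries were all below the 3 Bap1flox libraries, where 28.8% of genes were, and no member showed the reverse.

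Oas3 had the largest difference in this set. Its Bap1flox values were 64.8, 83.0 and 109 CPM and its Bap1LysM values 24.3, 38.1 and 24.0 CPM, without overlap (log2 fold change -1.52 ± 0.24 SE, adjusted p = 0.0017, edgeR). Isg15 was at 9.17, 10.4 and 16.5 CPM against 5.31, 5.00 and 4.10 CPM (-1.26 ± 0.23 SE, adjusted p = 0.0039, edgeR). The genotypes were separate for Oasl1 too, at 7.03, 9.58 and 12.8 CPM against 4.58, 5.59 and 3.92 CPM (-1.0 ± 0.24 SE, adjusted p = 0.012, edgeR). For Stat2 the values were 46.5, 55.9 and 77.1 CPM against 35.9, 40.1 and 38.5 CPM (-0.60 ± 0.18 SE, adjusted p = 0.029, edgeR). Bap1flox replicate 6 was the highest of the 6 libraries for all 4 of these genes.

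Other members did not separate. Irf7 was at 42.9, 62.5 and 115 CPM in Bap1flox and 34.0, 56.4 and 32.3 CPM in Bap1LysM replicates 4 to 6, with overlapping groups and a log2 fold change of -0.79 ± 0.35 (SE; adjusted p = 0.11, edgeR). Irf9 was at 47.4, 53.2 and 63.6 CPM against 42.0, 51.6 and 40.5 CPM. Usp18 was at 12.0, 14.8 and 21.4 CPM against 14.6, 19.4 and 10.3 CPM, and Ifi27l2a at 25.3, 35.9 and 39.1 CPM against 33.4, 42.1 and 24.3 CPM, so both were interleaved. Samd9l, at 87.8, 87.9 and 136 CPM against 97.1, 130.4 and 123 CPM, was the only member with a mean ratio above 1 (1.13). Neutrophil markers summed to 468 to 625 CPM in these Bap1LysM libraries and 185 to 257 CPM in the Bap1flox ones. Mmp8 of that list went the other way, at 26.3 to 35.3 CPM against 64.7 to 102.6 CPM. B and plasma cell markers summed to 61.8 to 79.3 CPM against 14.3 to 16.2 CPM. Macrophage markers were also higher in sum, at 5228 to 5885 CPM against 4367 to 5097 CPM. Cd14 of that list was lower, at 30.0 to 38.7 CPM against 47.6 to 60.0 CPM. Plasmacytoid dendritic cell markers were lower, at 38.7 to 45.5 CPM against 59.7 to 74.0 CPM. T and NK cell markers were at 3.02 to 4.25 CPM against 1.49 to 2.42 CPM, mostly Trac, at 2.36 to 3.65 CPM against 1.08 to 1.86 CPM. Of the conventional dendritic cell markers, Zbtb46, at 4.34 to 5.866 CPM against 1.254 to 2.168 CPM, and Ccr7, at 2.213 to 3.096 CPM against 0.425 to 0.793 CPM, were separate too. The plasmacytoid sum is carried by Tcf4, while Cox6a2 of the same list went the other way, at no more than 1.206 CPM but in all 3 Bap1LysM libraries above the 0.176 to 0.234 CPM of Bap1flox. The part of these in the genotype difference was not tested.

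With the library set as a term and the library labelled Bap1LysM preOC replicate 1 left out, 28 members were lower at the adjusted threshold, against 20.5% of 12881 genes, with a median of -0.65. With the same term and all 11 libraries, Gbp3 alone passed, against 17.0% of genes lower, and with the replicate number as a block, where 16.9% of genes were lower, Gbp3 and Ifi35 passed (log2 fold changes -0.58 and -0.44, adjusted p = 0.048 and 0.036 from edgeR). Gbp3 was lower in Bap1LysM in each of these fits. Its values were 31.7, 33.4 and 38.4 CPM in Bap1flox replicates 1 to 3 and 18.3, 19.2 and 27.2 CPM in replicates 4 to 6. In Bap1LysM it was at 34.4 and 19.5 CPM in replicates 1 and 2 and at 10.3, 12.8 and 11.9 CPM in replicates 4 to 6.

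**Figure D4:**
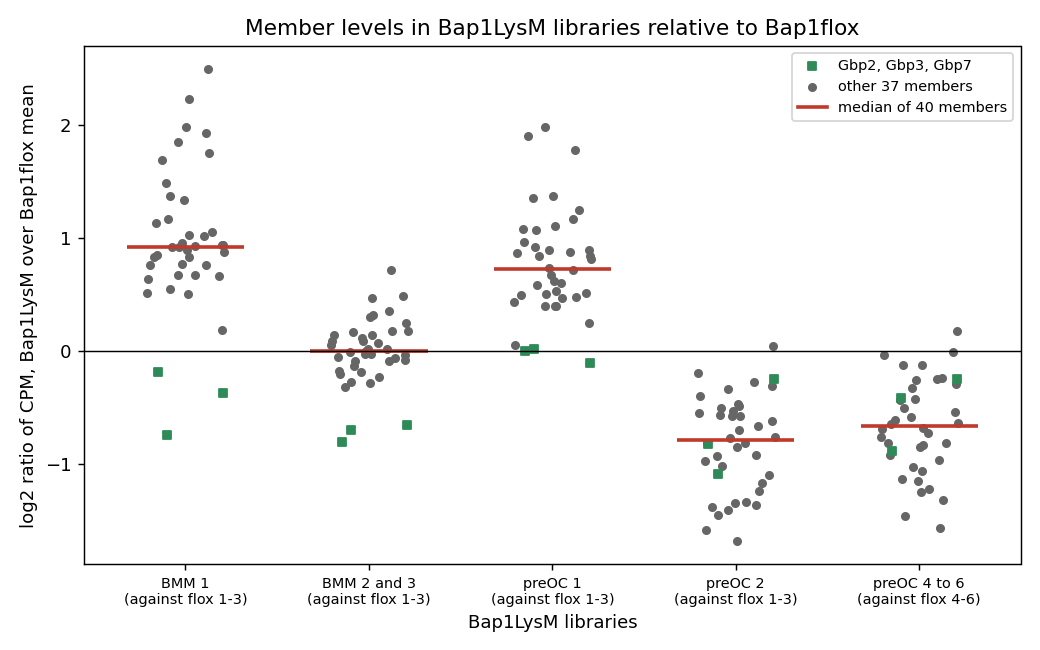
Log2 ratio of CPM for each member in Bap1LysM libraries over the Bap1flox mean of the same condition and replicate set, with a red line at the median of the 40 members. The medians correspond to ratios of 1.89, 1.0, 1.65, 0.58 and 0.63 from left to right, and Gbp2, Gbp3 and Gbp7 (green squares) stay near or below 0 where the other members are above it.

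**Figure D5:**
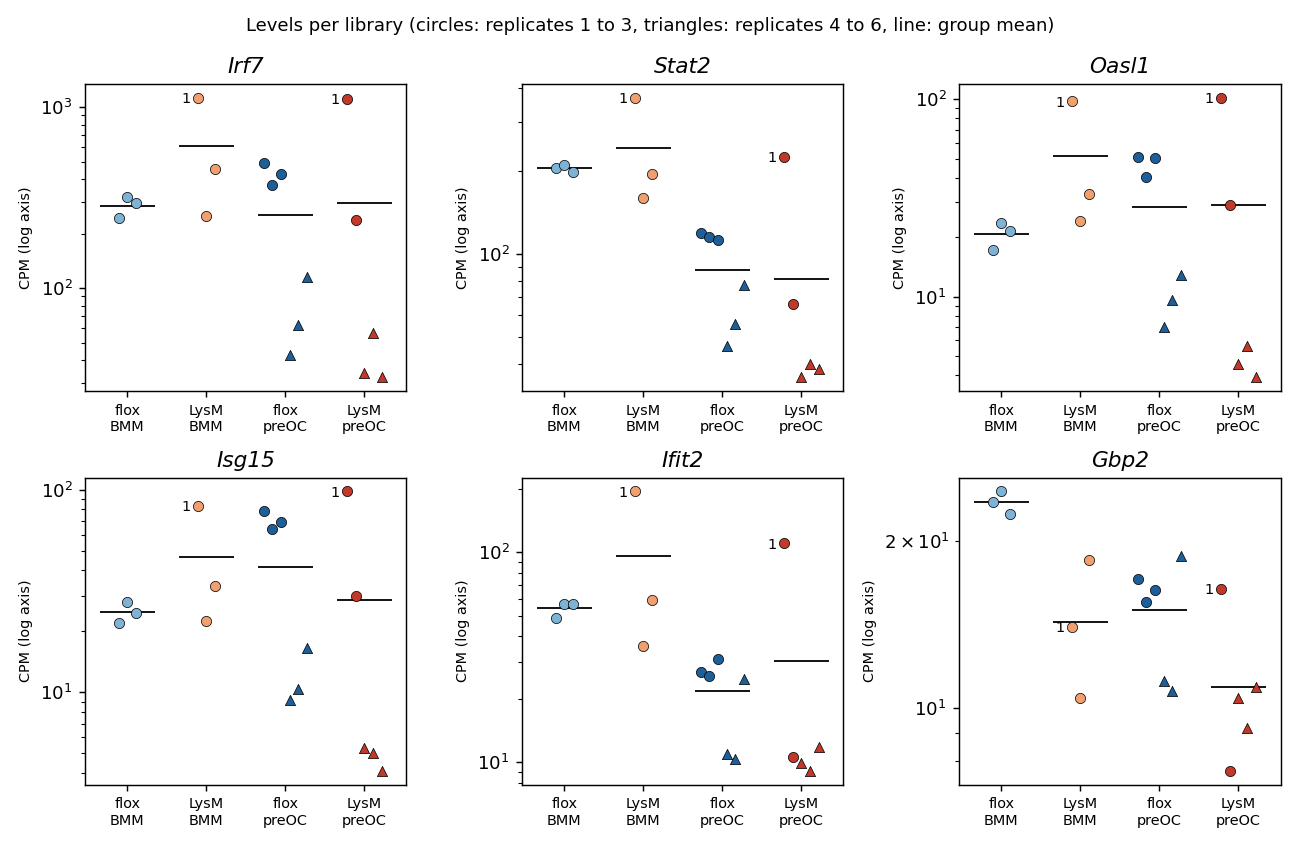
CPM of 6 members in each library on a log axis, by group, with a line at the group mean and the libraries labelled Bap1LysM replicate 1 marked 1. That library is the highest of its group for every gene shown except Gbp2 in BMMs, and the triangles of replicates 4 to 6 lie below the circles of their group for Irf7, Oasl1 and Isg15.

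Whether the RANKL response depends on genotype was tested as an interaction in the 11 libraries of replicates 1 to 3. With edgeR 0 members passed, as did 0.0% of 13637 genes, and 0 members had an unadjusted p under 0.05. DESeq2 and voomWithQualityWeights also called 0 members, where they called 117 and 0 of the 13637 genes. The median interaction of the members was -0.09 in the full fit and changed sign with the library left out, from -1.22 without Bap1LysM preOC replicate 1 to 0.37 without Bap1LysM BMM replicate 1 and 0.49 without Bap1LysM preOC replicate 2. Where a Bap1LysM preOC library was left out, a single Bap1LysM preOC library remained, assumed to vary like the other groups. Without both libraries labelled Bap1LysM replicate 1 the median was -0.85 and 30 members had an unadjusted p under 0.05, as did 16.3% of 13593 genes, but 0 members and 0 genes in all passed the adjusted threshold. The interaction of Isg15 was -0.97 in the full fit (adjusted p = 0.63) and -1.38 without those libraries (adjusted p = 0.15, both from edgeR). Its Bap1LysM levels were 22.6 and 33.4 CPM in BMM replicates 2 and 3 and 29.9 CPM in preOC replicate 2. The Bap1flox levels were 22 to 27.8 CPM in BMMs and 64.2 to 78.2 CPM in preOCs.

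The wider pathway was read from lists of genes outside the 40 members. Of 21 interferon ligand genes, 14 had a count of 0 in all 17 libraries, which allows up to 0.0489 to 0.079 CPM by library for counting error alone, and none of the others exceeded 0.133 CPM. Ifnb1 was at 0.116 CPM in the library labelled Bap1LysM preOC replicate 1 and at no more than 0.044 CPM elsewhere. Of the receptor and kinase genes, Ifnlr1 stayed under 1 CPM in all libraries. With RANKL in Bap1flox, 6 of the 8 others were lower and 0 higher, led by Ifnar2, Il10rb and Ifngr1 at log2 fold changes of -1.06, -1.02 and -0.97. Ifnar2 was at 134, 122 and 125 CPM in BMMs and at 74.2, 62.7 and 72.2 CPM in preOCs. Other interferon transcription factors fell in 8 of 11 cases and rose in 1, led by Irf4 (-3.54) and Irf8 (-2.11), lineage factors of dendritic cells and macrophages, and Sp100 (-0.79).

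Genes of nucleic acid sensing fell with RANKL in 11 of 18 cases and rose in 2, with Tlr7 and Tlr9 at -2.28 and -1.59. Feedback inhibitors rose in 6 of 11 cases and fell in 3, led by Tnfaip3, which shuts off NF-kB signalling, at 1.94, and the cytokine-signalling suppressors Socs1 and Socs3 at 1.14 and 1.06. Of 57 further ISGs tested, 19 rose and 25 fell, from the chemokine gene Cxcl10 at 2.89 to Gm4951 and the Fc receptor gene Fcgr1 at -1.80 and -2.38. Of 17 GTPase and interferon-gamma target genes, 6 rose and 3 fell, with Nos2 at 6.11, Gbp4 at 2.00 and Iigp1 at -1.86. All of these are edgeR calls at the adjusted threshold in Bap1flox replicates 1 to 3, to be read against the 31.7% and 32.9% of all genes. With all 6 Bap1flox preOC libraries, 31.7% of all genes were higher and 28.3% lower. Of the 57 further ISGs 6 were then higher and 24 lower. Of the 17 GTPase and interferon-gamma target genes 3 were higher and 2 lower. Of the 11 feedback inhibitors 5 were higher and 2 lower, and of the 18 sensing genes 2 and 10. Socs1 in Bap1flox preOC replicates 4 to 6 was at 0.18 of replicates 1 to 3, so its rise rested on replicates 1 to 3. The same ratio was 0.623 for Socs3, 0.211 for Nos2, 0.347 for Cxcl10 and 1.15 for Tnfaip3.

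Between genotypes in preOCs, the further ISGs gave few calls with all libraries and more in replicates 4 to 6 alone. With all 11 libraries 1 of 57 passed (Ube2l6, the E2 enzyme for ISG15, log2 fold change -0.56, adjusted p = 0.040 from edgeR), beside 15.8% of all genes. Without the library labelled Bap1LysM preOC replicate 1, 12 of 56 were lower and 0 higher, and with the set term as well 24 were lower and 2 higher, beside 13.3% and 20.5% of all genes lower. In replicates 4 to 6 alone 19 of 54 were lower and 1 higher, beside 18.0% of all genes lower. The 3 largest were Ifi211, Phf11d and Ifitm3 at -1.37, -1.12 and -1.11. Ifitm3, which keeps viruses from fusing with endosomes, had Bap1flox values of 343, 426 and 390.1 CPM and Bap1LysM values of 175, 183 and 158 CPM, far apart. The library labelled Bap1LysM replicate 1 was the highest of its condition's replicates 1 to 3 in 52 of 57 further ISGs in BMMs and in 51 of 57 in preOCs, where 12.2% and 18.7% of all genes showed this.

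Some genes upstream of the members were higher in Bap1LysM. In the fit of all 11 preOC libraries, 1 of 8 receptor and kinase genes was higher in Bap1LysM (Jak2, 0.95, adjusted p = 0.0053 from edgeR) and 4 of 18 sensing genes were higher, with Tlr7 and Tlr9 at 1.81 and 1.33, where 7.12% of all genes were higher. No sensing gene was lower in that fit, but 3 were in replicates 4 to 6 alone (6 higher) and 2 without the library labelled Bap1LysM preOC replicate 1 (4 higher). The count of receptor and kinase genes depended on the fit. It was 6 of 8 in replicates 4 to 6 alone, 6 with DESeq2 and 7 with the library set as a term, where 15.8%, 11.7% and 16.6% of all genes were higher. Without the library labelled Bap1LysM preOC replicate 1 it was 1 with no set term and 4 with it, where 10.7% and 18.5% were. Tlr7, an endosomal receptor of single-stranded RNA, overlapped in 1 library. It was at 43.0 to 96.1 CPM in the 6 Bap1flox preOCs, 76.7 CPM in Bap1LysM replicate 2, 209 to 226 CPM in Bap1LysM replicates 4 to 6 and 241 CPM in the library labelled Bap1LysM replicate 1, which had Lyz2 at 75.1% of the control mean. Of the GTPase list, Gbp8 and Gbp4 were higher at 1.78 and 1.14 (adjusted p = 0.0042 and 0.0044 from edgeR), whereas the members Gbp2, Gbp3 and Gbp7 had log2 fold changes at or below 0 in that fit. Of the feedback inhibitors Ptpn11 was lower, at -0.38 (adjusted p = 0.045 from edgeR). In BMMs, Tmem173, which encodes STING, was lower in Bap1LysM at -0.99 (adjusted p = 0.011 from edgeR) and Traf3 higher at 0.34 (adjusted p = 0.046 from edgeR). With all 6 libraries 1 of 18 sensing genes was higher and 1 lower, against 5.32% of all genes called. Without the library labelled Bap1LysM BMM replicate 1 it was 0 higher and 1 lower, against 2.84%, and DESeq2 gave 3 higher and 1 lower, against 15.9%.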

How the data were processed

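RNA-seq of poly-A RNA was analysed in 17 libraries of mouse BMMs and preOCs. Per the labels and methods, the authors aligned reads with STAR 2.5.1a and made counts of uniquely aligned, unambiguous reads per Ensembl release 76 gene with featureCounts 1.4.6-p5. The strand setting is not given in the sources used here. The deposited tables hold a count, a CPM and an RPKM per gene. The deposited CPM equalled the count scaled by the library total and the deposited RPKM the CPM per kilobase. Groups came from the sample labels.

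From the counts, 355 ribosomal RNA genes were left out, and genes above 1 CPM in at least 2 libraries (4 in preOCs) were fitted with TMM factors and edgeR 4.0.16 (quasi-likelihood test, R 4.3.3), with p-values adjusted over all genes tested. DESeq2 1.42.0, voomWithQualityWeights (limma 3.58.1), other scalings, no filter, each library left out and replicate numbers as a block were alternatives. The study's methods name voomWithQualityWeights, which was fitted to the same counts and stands here as an alternative to edgeR. Between genotypes in preOCs it called 26 members, all lower, where edgeR called 0. The code was tested on simulated data. At totals of 37967542 to 61369441, a count of 0 allows up to 0.0489 to 0.079 CPM, taking 3 counts as the limit for counting error only.

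The members and lists were chosen with earlier results of these data known. Values are given in full for Irf7, Irf9, Usp18 and, per role, for the called member with the largest RANKL fold change. Other members given in full were chosen after their values were seen. From each pathway list up to 3 called genes are named. Same-numbered libraries deviated together from their group means (r = 0.36, 0.24 and 0.33 for RANKL, 0.51, 0.37 and 0.40 in BMMs, 0.43 to 0.73 in preOCs). The pairing for RANKL and in BMMs comes from this alone, and some differently numbered libraries deviated together there too (up to 0.28 and 0.21). In preOCs, differently numbered libraries of the same set deviated together as well (0.25 to 0.70), so r there does not separate the number from the set, and within preOC replicates 4 to 6 r was -0.10 to 0.09 and no pairing was used.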

Additional observations from a re-analysis of the deposited data

Results flagged for a closer look

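Among the Bap1LysM preOCs, the library labelled replicate 1 lay further above the other 4 than Dixon's 95% criterion allows in 29 of 40 members. The criterion takes all libraries of a group as 1 population, where chance alone gives such a gap in about 1 in 20 groups per gene. Here the other 4 include replicates 4 to 6. In Bap1flox preOCs those replicates had a median member ratio of 0.47 to replicates 1 to 3. That chance rate therefore does not hold here, and the part of the library set in the gap was not tested. These genes also share the library, so the 29 are not independent. The largest values were Irf7 at 1113 CPM, Oas3 at 677 CPM, Oasl2 at 482 CPM, Parp14 at 458 CPM, Bst2 at 371 CPM and Slfn5 at 329 CPM. Stat2 was at 225 CPM, Trim30a at 224 CPM, Irgm1 at 157 CPM, Ifit3 at 138 CPM, Ifi27l2a at 129 CPM, Ifit2 at 110.5 CPM, Eif2ak2 at 107 CPM, Oasl1 at 102 CPM and Parp9 at 102 CPM. Usp18 was at 99.4 CPM, Ifit1 at 99 CPM, Isg15 at 97.9 CPM, Zbp1 at 95.8 CPM, Ifih1 at 91.0 CPM, Xaf1 at 68.2 CPM, Herc6 at 65.7 CPM, Rsad2 at 65.4 CPM and Ifi44 at 58.0 CPM. Cmpk2 was at 55.4 CPM, Ifi47 at 52.5 CPM, Igtp at 41.0 CPM, Mx1 at 33.3 CPM and Mx2 at 10.6 CPM. The 11 members without such a gap include Gbp2, Gbp3 and Gbp7. The same library held Lyz2 at 75.1% of the Bap1flox mean, against 0.152% to 0.436% in the other 4, and the part of this in the result was not tested.

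In the Bap1flox preOCs 1 value stood apart by the same criterion, Samd9l at 136 CPM in replicate 6, against 87.8 to 104 CPM in the other 5.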

How the results depend on the processing

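The RANKL counts of members called stayed within 1.5 times in all alternatives but 1. With all 6 Bap1flox preOC libraries 11 members passed, 1 of them higher, the median was -0.32, and Irf7 (-0.31), Oas1a (-0.03), Oas3 (-0.01) and Rtp4 (-0.06) turned negative. Leaving out 1 library gave 21 to 29 calls. The replicate block gave 22 for RANKL, 2 in preOCs, 2 in BMMs (1 higher, 1 lower) and 0 for the interaction.

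In preOCs, voomWithQualityWeights gave 26 calls (median -1.01), the library set as a term 1, replicates 4 to 6 alone 20, and the set term without Bap1LysM replicate 1 gave 28. Leaving out 1 library gave 0 to 14 calls, 14 being without Bap1LysM replicate 1, and medians from -0.94 to 0.05. Log2 fold changes also turned sign, and the cause was not tested. Irf7 was 0.35 with all libraries, -1.69 with voomWithQualityWeights, -0.28 with the replicate block, -0.06 with the set term, -0.79 in replicates 4 to 6, -0.80 with the set term without Bap1LysM replicate 1, and -1.43 to 0.65 leaving out 1 library. In the same order Oasl1 was 0.13, -1.84, -0.42, -0.23, -1.0, -0.88 and -1.36 to 0.42. Usp18 (0.26) was -0.53 with voomWithQualityWeights, -0.06 in replicates 4 to 6, -0.22 with the set term without that library, and -0.66 to 0.49 leaving out 1. Ifit2 (0.59) was -0.78 with voomWithQualityWeights, -0.10 with the replicate block, -0.54 in replicates 4 to 6, -0.80 with the set term without that library, and -0.99 to 0.83 leaving out 1. Stat2 (-0.01) was 0.01 with DESeq2 and with RLE factors, 0.47 in replicates 1 to 3, and -0.89 to 0.18 leaving out 1. Irf9 (-0.11) was 0.11 in replicates 1 to 3 and -0.40 to 0.00 leaving out 1. Ifi27l2a (-0.08) was 0.05 with the set term, 0.06 in replicates 1 to 3, 0.05 in replicates 4 to 6, and -0.72 to 0.19 leaving out 1.

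In BMMs, DESeq2 called 3 members (2 higher, 1 lower), voomWithQualityWeights 2 (1 higher, 1 lower) and the fit without a filter 1, higher. Leaving out 1 library took Ifit2 (0.89) from -0.20 to 1.30, Irf9 (0.06) from -0.05 to 0.18 and Stat2 (0.27) from -0.22 to 0.52, the lowest each being without Bap1LysM replicate 1. For the 40 members, counts of 0 calls in the interaction held in every fit run, although DESeq2 called 117 of 13637 genes.

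Replicates 1 to 3 hold only 2 Bap1LysM preOC libraries, and reads shared by close copies of Ifit, Oas and Gbp genes are missing from the counts.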
